A study of Mus musculus with 4 samples.

Results

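The 4 Hox clusters of the mouse genome were examined for binding of SCL (gene symbol Tal1), a DNA-binding protein of the basic helix-loop-helix class without which blood does not form. Chromatin immunoprecipitation followed by sequencing (ChIP-seq) had been carried out with an in-house rabbit antiserum against SCL on FLK1+ mesoderm, with 2 SCL ChIP libraries and 2 input libraries made without antibody. The cells came from embryoid bodies, the aggregates that differentiating embryonic stem (ES) cells form, at day 3.5. Their strain was labelled C57Bl/6 X Sv129, and the study's wild-type ES cells were a single line, J1. FLK1+ cells were selected on magnetic columns by this surface receptor, which marks mesoderm with blood potential. Both libraries of each group entered a single pooled call of 12885 peaks. The paper reports fewer SCL-bound loci than this, and which of the peaks described below are among those loci was not checked. The list has no value per library, so replicate error could not be given. It also holds no expression values, so the labelled cell type could not be checked against its markers. A peak was counted as a Hox peak when the protein-coding transcription start site (TSS) nearest to its summit belonged to a Hoxa, Hoxb, Hoxc or Hoxd gene. This rule used position alone and found 6 of the 12885 peaks. HoxA held 2 and HoxB 4, while HoxC and HoxD held 0. Only 2 of the 6 lay inside a cluster, taken as the stretch between the outermost ends of its coding Hox genes.

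Hox genes encode homeodomain transcription factors that give cells their position along the head to tail axis. In each cluster they lie in the order of their paralogue numbers, and genes at the 3′ end (group 1 and its neighbours) are expressed earlier and further forward than those at the 5′ end (group 13). HOX proteins bind DNA together with TALE homeodomain cofactors of the PBX, MEIS and PKNOX families, and CDX proteins act upstream of the clusters. FLK1+ mesoderm gives rise to blood and endothelium. SCL binds E-boxes as a heterodimer with E proteins and, in blood cells, is often held in a complex with a GATA factor where part of an E-box stands next to a GATA site.

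Sequence at the summits was read from the NCBIM37 genome, the same build as mm9, on the plus strand. The windows shown here reach 50 bp to each side of the summit. Capitals mark GATA matches (GATA after an A or T and before an A or G) and E-boxes (CANNTG), searched on both strands, so a GATA match on the minus strand reads as TATC. The Hoxb3 window is shown as that of the member inside the HoxB cluster. The other windows were added after their values had been seen, because they belong to the 3 strongest peaks outside a cluster. The lines give, in order, Hoxa13 (chr6:52223597-52223697), Hoxb3 (chr11:96200592-96200692), Hoxb1 +31.6 kb (chr11:96258582-96258682) and Hoxb1 +44.9 kb (chr11:96271905-96272005).
Hoxa13 -12.8 kb: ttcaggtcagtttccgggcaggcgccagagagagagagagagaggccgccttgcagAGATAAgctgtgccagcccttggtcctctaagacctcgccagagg
Hoxb3 -4.4 kb: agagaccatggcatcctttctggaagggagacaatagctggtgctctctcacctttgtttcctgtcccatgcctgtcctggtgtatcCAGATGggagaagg
Hoxb1 +31.6 kb: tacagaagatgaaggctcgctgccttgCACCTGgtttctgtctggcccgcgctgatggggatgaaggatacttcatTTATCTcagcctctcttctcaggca
Hoxb1 +44.9 kb: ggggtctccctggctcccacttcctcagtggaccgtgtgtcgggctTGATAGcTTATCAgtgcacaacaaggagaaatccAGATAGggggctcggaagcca
Each peak is named by its nearest gene and the distance of its summit from the TSS, with a plus sign for downstream.

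The strongest Hox peak lay outside the HoxB cluster, on its 3′ side, 44.9 kb downstream of the TSS of Hoxb1 at chr11:96271772-96272220. Hoxb1 is a group 1 gene known for setting the identity of a hindbrain segment. The fold enrichment, which sets the ChIP fragments stacked at the summit against the local background, was 72.0 (95% Poisson confidence interval 64.9 to 79.7), from 373 fragments over a background of 4.19. The interval, like all those for folds below, covers counting error of the ChIP fragments only, with the background held fixed. Of all peaks in the list, 96.3% had a lower fold.

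The other 2 Hoxb1 peaks lay between it and the cluster. The peak 31.6 kb downstream, at chr11:96258289-96258890, had a fold of 20.8 (17.4 to 24.7) from 129 fragments. The peak 34.4 kb downstream, at chr11:96261299-96261618, had a fold of 9.21 (6.70 to 12.4) from 42 fragments. The intervals of the 3 peaks did not overlap. Their summits followed each other at 2.79 kb and 10.5 kb, and all 3 were intergenic, 29.1, 31.9 and 42.4 kb from the end of the cluster. They were the only Hox peaks with another summit within 12.5 kb, 3 of 6, where 34.5% of all peaks had such a neighbour.

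Inside the HoxB cluster a single peak was found, in an intron of Hoxb3 at chr11:96200493-96200864. Hoxb3 is a group 3 gene active in the hindbrain. This was the weakest of the 6, with a fold of 6.04 (4.41 to 8.08) from 43 fragments over a background of 6.29, the highest background among the 6. Only 6.01% of the list had a lower fold. The summit lay 4.44 kb upstream of the nearest coding TSS of Hoxb3 and 58.0 kb from the next summit, which was the first of the Hoxb1 peaks. Its interval overlapped that of the Hoxb1 +34.4 kb peak, and the difference between these was not tested, while the other 4 folds were above both.

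Outside the HoxA cluster, beyond its 5′ end, lay a peak at chr6:52223486-52224016. It was 12.8 kb upstream of the TSS of Hoxa13, a gene needed for the distal limb and the urogenital tract, and between Hoxa13 and Evx1. The fold was 41.8 (35.7 to 48.6) from 165 fragments over a background of 2.97, above 90.3% of the list. Its interval overlapped with none of those above.

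**Figure D1:**
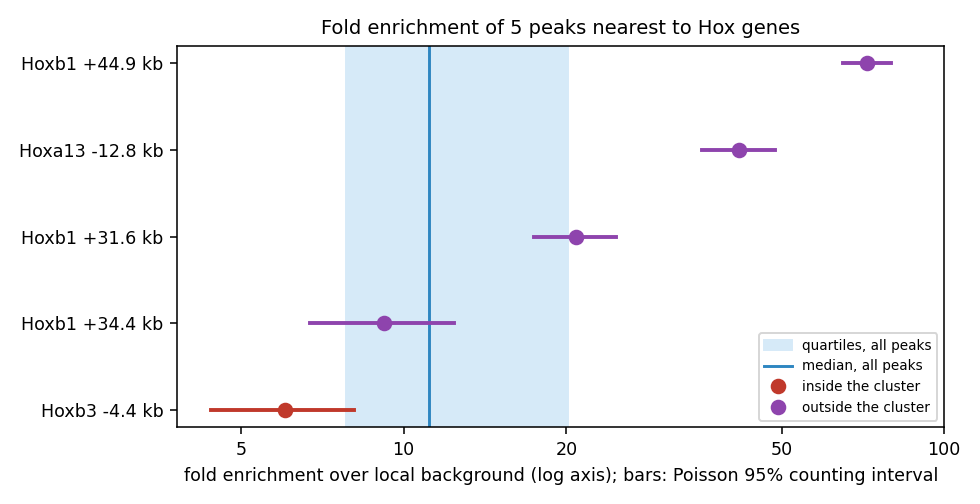
Fold enrichment (log axis) of 5 of the 6 Hox peaks, with a red point for the peak inside a cluster, purple points for those outside, and bars for the 95% Poisson counting interval. The blue line and band are the median of 11.1 and the quartiles of 7.84 and 20.1 over all 12885 peaks. Of the 5 peaks drawn, 3 lay above the upper quartile, and Hoxb3 lay below the lower quartile.

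The order of these 5 folds was thus Hoxb1 +44.9 kb, Hoxa13, Hoxb1 +31.6 kb, then Hoxb1 +34.4 kb and Hoxb3, whose intervals overlapped. The median fold was 21.0 for all 6 Hox peaks, beside 11.1 for the list. Peaks inside and outside the clusters were not compared by fold, and the value of Hoxb3 does not stand for both of the peaks inside. A fold of at least 10 was found in 4 of 6, beside 56.6% of all peaks. The −log10 q ran from 18.8 at Hoxb3 and 26.8 at Hoxb1 +34.4 kb to 124.7 at Hoxb1 +31.6 kb, 216.7 at Hoxa13 and 565.9 at Hoxb1 +44.9 kb.

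Background did not follow this order. The local background of the 6 ran from 2.97 to 6.29 fragments, with a median of 3.93 beside 3.67 for the list, whereas their ChIP fragments ran from 42 to 373, with a median of 106.5 beside 53. Hoxb3 and Hoxb1 +34.4 kb had nearly equal fragments, 43 and 42, and their folds differed through backgrounds of 6.29 and 3.67. Their width was 320 to 602 bp, with a median of 446 bp beside 397 bp. GC content in the summit windows had a median of 55.0% beside 50.5%.

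**Figure D2:**
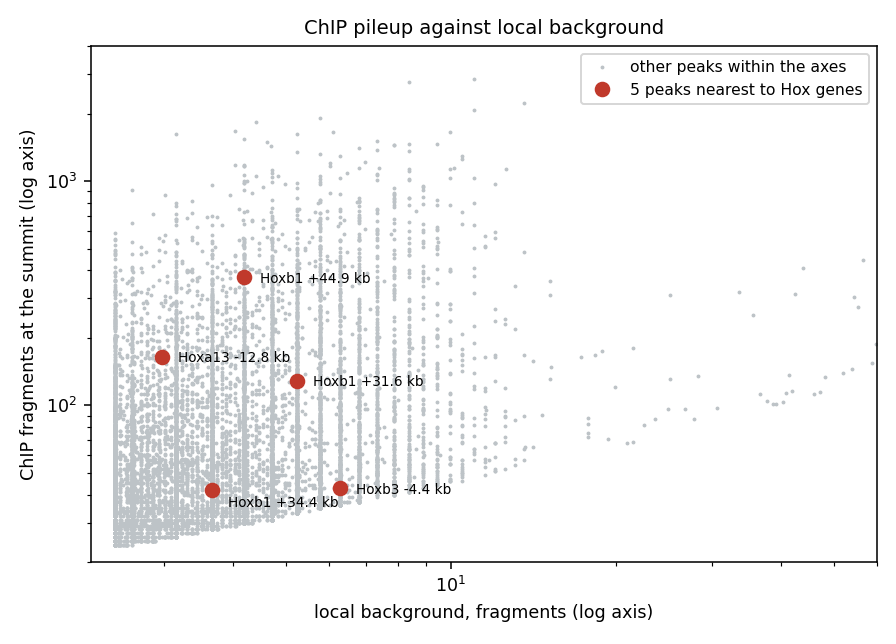
ChIP fragments at the summit against local background, both on log axes, for 5 of the 6 Hox peaks (red) and the other peaks of the list (grey, Hox peaks left out), of which 51 lie beyond the axes. The Hox peaks spread over fragments from 42 to 373 within a narrow span of backgrounds from 2.97 to 6.29.

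None of the 6 summits was at a promoter. Of all peaks, 6.52% had their summit within 1 kb of a coding TSS, and 0 of 6 Hox peaks did. The median distance to the TSS was 22.2 kb, beside 28.4 kb for the list. The 4 summits outside the clusters were intergenic, as were 54.1% of all summits, and that of Hoxb3 was intronic, as were 42.4%.

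The clusters themselves held 2 peaks, where the density of the list over the genome would give 2.39 in their joint length. HoxA (chr6:52105366-52210874, 11 coding genes) had 1 peak in 105.5 kb. HoxB (chr11:96055630-96229570, 10 genes) had 1 in 173.9 kb. HoxC (chr15:102751534-102867274, 9 genes) had 0 in 115.7 kb, and HoxD (chr2:74506367-74603200, 9 genes) had 0 in 96.8 kb. At the density of the list over the genome, 4.85 peaks per Mb, lengths of this size would hold 0.512, 0.844, 0.562 and 0.470 peaks, so a count of 0 in one cluster could not be told apart from the genome's density. A count of 0 allows up to 25.9 peaks per Mb in HoxC and 31.0 in HoxD, taking 3 counts as the limit. Over the 4 clusters there were 2 peaks in 0.492 Mb, or 4.06 per Mb (95% Poisson confidence interval 0.492 to 14.7), which includes the genome's value.

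**Figure D3:**
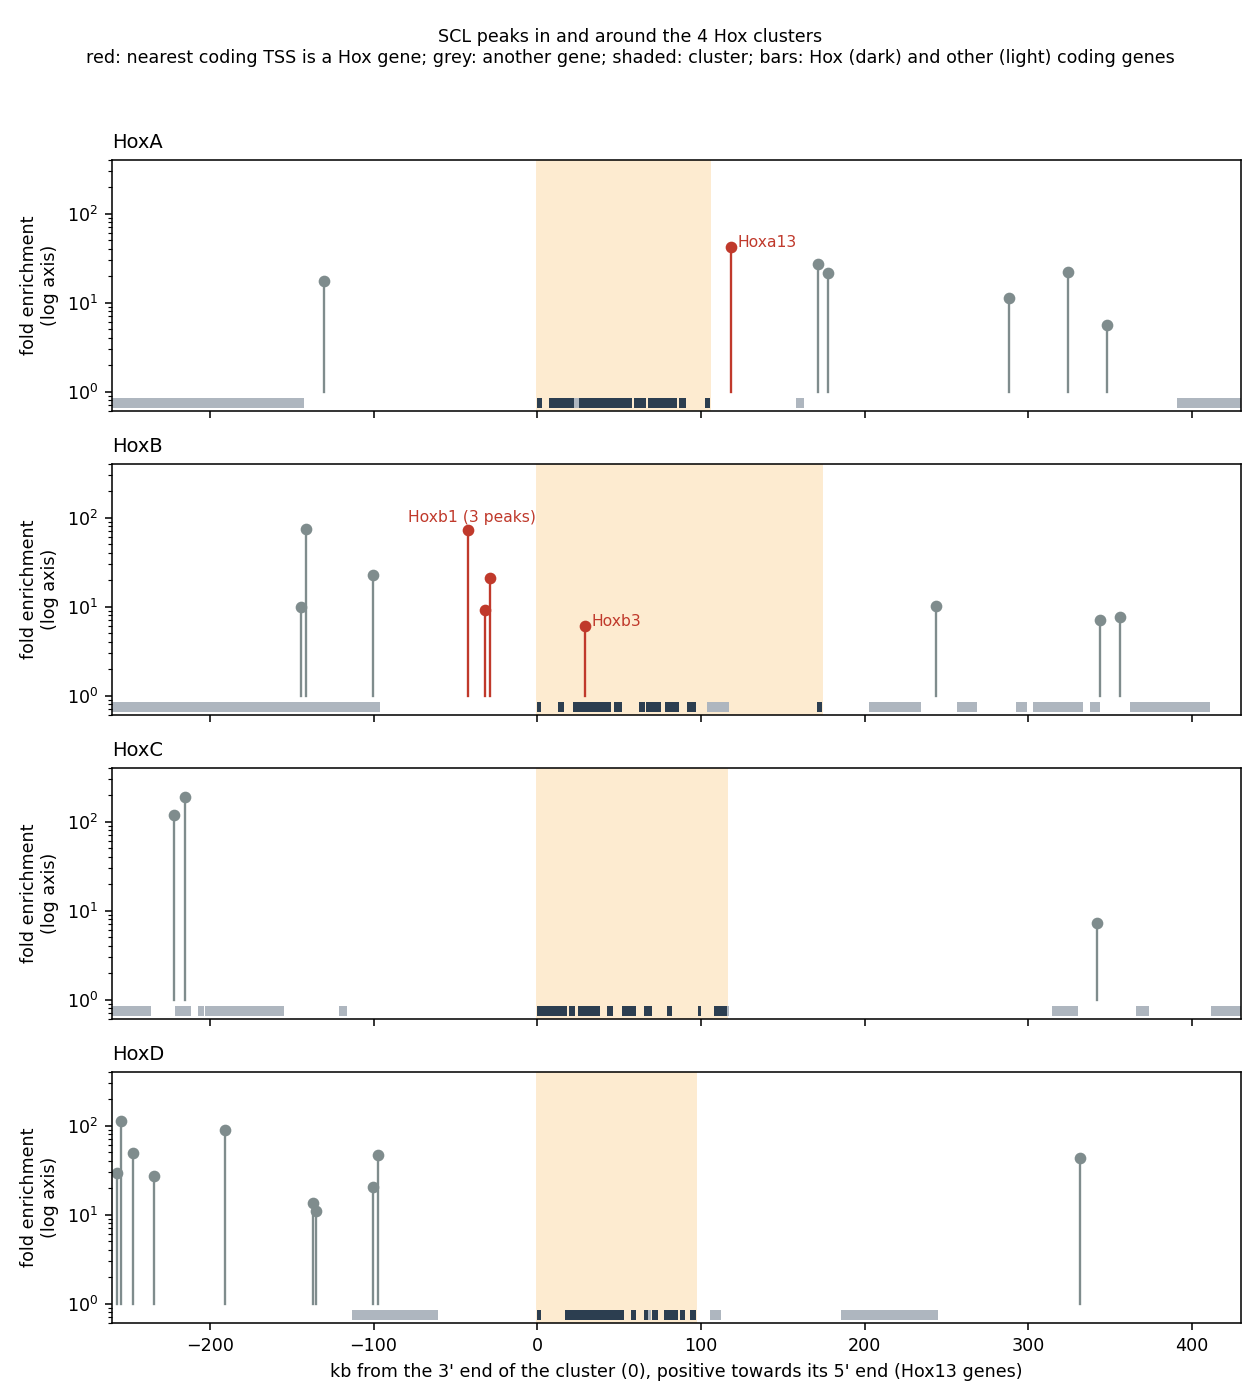
SCL peaks in and around the 4 clusters. The horizontal axis is the distance in kb from the 3′ end of each cluster, running towards its 5′ end, and the height of each stem is fold enrichment on a log axis. Red stems are 5 of the 6 Hox peaks (1 inside HoxA is not drawn), grey stems are peaks nearest to another gene, shading marks the cluster, and bars at the base are coding genes (Hox genes dark). The shaded areas of HoxC and HoxD hold no stem, and those beside HoxD stand mostly on the 3′ side.

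What lay beside the empty clusters differed. The HoxD cluster was flanked on its 3′ side by 10 peaks within 500 kb and on its 5′ side by 1. All 10 were given to Mtx2, which encodes a mitochondrial outer membrane protein and is the next coding gene in that direction. Their folds ran from 8.45 to 112.7 with a median of 28.3, and the nearest of them, with a fold of 47.2, lay 97.0 kb from the cluster. The single peak on the 5′ side was given to Lnp, had a fold of 43.7 and lay 234.7 kb away.

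HoxC stood furthest from any peak. The nearest summits were 215.0 kb away on the 3′ side, a peak with a fold of 190.9 nearest to Nfe2, an erythroid and megakaryocytic transcription factor, and 226.2 kb away on the 5′ side, a peak with a fold of 7.28 nearest to Calcoco1. Within 500 kb there were 5 and 2 peaks. HoxA had 5 and 7 peaks in these flanks, the 7 on the Evx1 side counting the Hoxa13 peak, and HoxB had 8 and 6, the 8 on the 3′ side counting the 3 Hoxb1 peaks. The highest fold in the HoxB flanks was on the 5′ side, 100.6 at a peak nearest to Abi3. These flank counts were chosen after the values had been seen. They were not tested against the genome's density of 4.85 peaks per Mb.

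Of 39 coding Hox genes, 4 were nearest to a peak, Hoxa13 and Hoxb3 among them to 1 each and Hoxb1 to 3. This was 10.3% (95% Wilson confidence interval 4.06 to 23.6%), beside 29.2% of all 22232 coding genes. This share depends on the stretch of genome in which a gene is the nearest, and neighbouring Hox TSSs divide the clusters into short stretches. The median stretch was 10.5 kb for Hox genes and 46.6 kb for all coding genes, and 35 of the 39 Hox genes were below the latter. Together these Hox stretches spanned 0.710 Mb and held 8.45 peaks per Mb (95% Poisson confidence interval 3.10 to 18.4), beside 4.85 over the genome. This interval includes the genome's value. By a fixed reach in place of the nearest gene, 3 of 39 Hox genes, Hoxb3 among them, had a summit within 10 kb of a TSS, or 7.69%, beside 15% of all coding genes.

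**Figure D4:**
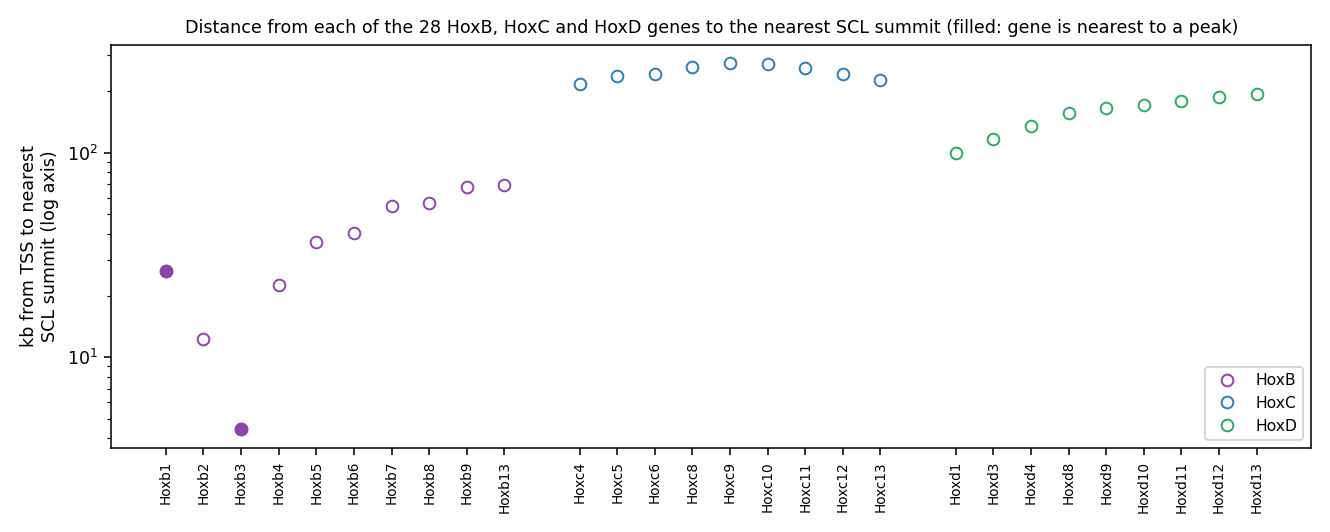
Distance in kb (log axis) from the nearest TSS of each of the 28 HoxB, HoxC and HoxD genes to the nearest SCL summit. Filled points are Hoxb1 and Hoxb3, which are nearest to a peak. The summit closest to Hoxb1, at 26.4 kb, is that of the Hoxb3 peak. HoxB genes lie between 4.44 and 69.5 kb from a summit, and all HoxC and HoxD genes at 99.2 kb or more.

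HoxA genes, whose distances are not given here, overlapped with HoxB genes in this distance. HoxB genes lay 4.44 to 69.5 kb from the nearest summit, HoxD genes 99.2 to 193.8 kb and HoxC genes 217.4 to 274.8 kb, and these last 3 clusters did not overlap. Genes of 1 cluster share the same few summits, so these are not separate observations.

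In the summit windows, the Hoxb1 peaks differed in GATA matches. The strongest, printed above, at +44.9 kb, held 3 GATA matches. A TGATAG at -4 to 1 bp from the summit and a TGATAA on the other strand at 3 to 8 bp are 1 base apart, and an AGATAG follows at 30 to 35 bp. Windows with 3 or more GATA matches made up 2.84% of all peaks, and windows with GATA on both strands 10.9%. These counts were chosen after the sequence had been seen. Hoxb1 +31.6 kb held 1 GATA match, and Hoxb1 +34.4 kb, the weakest of the 3, held none.

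Over the 6 windows, GATA was found in 4, beside 73.2% of all peaks. The 4 were the 4 with the highest folds, and Hoxb3 and Hoxb1 +34.4 kb had none. At Hoxa13 the match lay at 6 to 11 bp from the summit. Taking the whole peak, 5 of 6 had GATA, beside 89.4%, since Hoxb1 +34.4 kb held 3 matches, all more than 50 bp from its summit, and the Hoxb3 peak none. In the 12 windows taken 1 kb to each side of the 6 summits, 2 held GATA, beside 17.8% of such windows over the list.

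E-boxes were found in 3 of 6 windows, beside 52.6%. Among them were CAGATG at Hoxb3 and CACCTG at Hoxb1 +31.6 kb. In the windows 1 kb away, 4 of 12 held an E-box, beside 42.4% over the list. CANNTG is common in any sequence. The E-box CAGCTG was in 0 of 6 windows, beside 14.1%.

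The composite of a partial E-box and GATA, here CTG, then 7 to 9 bases of any kind, then GATA, was in 0 of 6 windows (95% Wilson confidence interval 0 to 39.0%), beside 32.9% of all peaks. Its GATA needs no particular base on either side and so can overlap the GATA matches above. Anywhere in the peak, a count chosen after the data were seen, 2 of 6 held it, beside 47.5%. These were the peaks with the highest folds, Hoxb1 +44.9 kb and Hoxa13, where it lay 158 to 172 bp and 190 to 205 bp from the summit with 8 and 9 bases between CTG and GATA. Both are shown on the plus strand with CTG and GATA in capitals (chr11:96272105-96272135 and chr6:52223829-52223860), the first reading as TATC and CAG because it lies on the minus strand.
Hoxb1 +44.9 kb composite: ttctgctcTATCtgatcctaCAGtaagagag
Hoxa13 -12.8 kb composite: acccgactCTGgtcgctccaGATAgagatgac

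Among peaks with GATA but without the composite in the window, 5675 in all, the median fold was 11.1. Of these, 97.0% had a lower fold than Hoxb1 +44.9 kb, 91.5% a lower fold than Hoxa13 and 77.0% than Hoxb1 +31.6 kb. Of motifs for other blood and endothelial factors, the ETS core AGGAA was in 4 of 6 windows, beside 51.9%, and the RUNX sequence TGTGGT in 0 of 6, beside 9.56%. The MEIS sequence TGACAG was in 1 of 6, beside 11.2%. For each of the 7 motifs, the 95% Wilson interval of the share in the 6 windows included the share in the list.

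Among genes that act with or upstream of HOX proteins, 12 were examined, and 11 are reported here. Of these 11, 6 were nearest to a peak, beside 29.2% of all coding genes. They had 7 peaks with a median fold of 7.84, beside 11.1 for the list. The gene left out also was nearest to a peak, so these counts and this median do not stand for all 12. Some of these also are the nearest gene over long stretches, such as 744.9 kb for Meis2.

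Among the MEIS and PKNOX cofactors, Meis1 was nearest to 2 peaks, the stronger at chr11:19094286-19094839 with a fold of 21.0 (16.4 to 26.4), 175.7 kb upstream in intergenic sequence. Meis2 had 1 intronic peak with a fold of 10.1, Pknox2 1 intronic peak with 11.3, and Pknox1 1 peak with 6.17 lying 0.408 kb upstream of a TSS. Pbx3 had 1 intronic peak with a fold of 6.07. Of the CDX genes, which activate posterior Hox genes and are required for embryonic blood, Cdx2 had 1 peak with a fold of 5.61, 15.0 kb downstream. Another summit, nearest to a different gene, lay closer to Cdx2, 8.44 kb from its TSS. Pbx2, Pbx4, Meis3, Cdx1 and Cdx4 were nearest to none. Of the 11 genes reported here, 2, Pknox1 and Cdx2, had a summit within 10 kb of a TSS, beside 15% of all coding genes.

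Peaks close to the clusters but nearer to a neighbouring gene were counted too, because the rule gives them to that gene. Of 10 neighbours found in the annotation, 8 were nearest to a peak, beside 29.2% of all coding genes, with 25 peaks and a median fold of 22.1, beside 11.1 for the list. Several are the nearest gene over long stretches, 448.1 kb for Mtx2, 374.6 kb for Lnp and 306.9 kb for Skap2, beside the median of 46.6 kb for coding genes, so the share of genes is not comparable as it stands. Beyond the Hoxa13 peak, Evx1, a homeobox gene linked to HoxA, had 3 peaks with folds of 27.3, 21.5 and 11.4, the nearest 53.4 kb from the Hoxa13 summit. Beyond the Hoxb1 peaks, Skap1, an adaptor protein of T cells, had 3 peaks with folds of 74.6, 22.7 and 9.78. The highest of these, in an intron of Skap1, had an interval of 68.7 to 80.9, which overlapped that of Hoxb1 +44.9 kb. Skap2 on the 3′ side of HoxA had 3 peaks with a highest fold of 48.9, and Hibadh, beyond Evx1, had 3 with a highest of 49.4. Ttll6, on the 5′ side of HoxB, had 1 peak with a fold of 10.2, and Evx2 and Smug1 had none.

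With noncoding genes admitted as the nearest, the HoxA peaks left the set. The TSS nearest to the Hoxa13 summit was then that of Gm15053, 10.9 kb away. The 4 HoxB peaks kept a Hox gene as the nearest.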

How the data were processed

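The authors aligned paired-end reads to mm9 with Bowtie 1.1.2, removed duplicates, called peaks with MACS2 2.0.10 on the merged ChIP libraries against merged input and set the list by the irreproducible discovery rate. The deposited fold enrichment of each peak is a ratio, and the deposited −log10 p and −log10 q are MACS2's. Positions were counted from 1. MACS2's formulas, the ratio of pileup + 1 to background + 1 and a Poisson p, were solved for whole ChIP fragments and background, which matched the −log10 p to within 0.001 in 99.9% of peaks. The depth of each library is not given in the list. Intervals cover counting error only, those of folds with the background held fixed, and none covers the spread between differentiations. Each summit was given to the nearest TSS of a protein-coding transcript in GENCODE vM1, on NCBIM37. Motifs were counted with Python 3.11.15, in windows of 101 bases, on both strands. The solving and counting steps were tested on simulated data. No test was made, since peaks of 1 pooled list are not replicates. The members and gene lists were chosen with earlier results of these data known. The rule for named genes was all Hox peaks if 30 or fewer, and each cofactor gene with a peak by its strongest. Some items that these rules give, among them a Hox peak, a cofactor gene and a window sequence, are not reported here. The flanking Prac was not matched in the annotation. Alternatives changed the TSS set, peak position, thresholds, merging, cluster bounds and motif window.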

Additional observations from a re-analysis of the deposited data

How the results depend on the processing

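Of 72 values under alternative settings, 64 stayed within 1.5 times the reported count, the range of the Hox folds or the reported interval, and 8 moved. Part of this tally was fixed in advance, so it does not measure robustness. Counts of 0 cannot rise where a setting only removes peaks, and the median of some Hox peaks cannot leave the range of all their folds. A fall from 6 to 4 Hox peaks, as with a fold of at least 10, also counted as within the limits. With TSSs of lincRNA and processed-transcript genes added, 1 peak was inside a cluster and HoxA had 0. With a fold of at least 10, 1 peak was inside and HoxB had 2, and a −log10 q minimum of 50 likewise left 1 and 2, with GATA in 100% of windows. Of all 12 cofactor and CDX genes on the list, 3 had a summit within 10 kb, beside 7 by the nearest TSS. The 6 peaks were found again with all transcripts of coding genes and with peak midpoints. The clusters held 3.50 peaks per Mb with bounds 10 kb further out and 2.03 at a fold of at least 10, beside 4.06. Only 56.6% of all peaks reach that fold, so the density over the genome is lower there too. No paired analysis was possible because MACS2 had been run on merged libraries, and so no replicate could be left out either. Of the 6 peaks, 2 rest on 42 and 43 fragments, so their folds are the least precise in relative terms.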
